A study of Mus musculus with 12 samples.

Results

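The hexosamine pathway genes and the genes of O-GlcNAc cycling were followed through red cell differentiation of G1E-ER4 cells, a mouse line. Members were the 10 gene symbols Gfpt1, Gnpnat1, Pgm3, Uap1, Nagk, Gnpda1, Gnpda2, Amdhd2, Ogt and Mgea5 (the older symbol of Oga), matched exactly among 32699 genes, and all 10 were found. The study asked whether disturbed O-GlcNAc balance alters erythroid transcription. All cells carried GATA-1 fused to the estrogen receptor (GATA-1ER) and grew with erythropoietin, stem cell factor and puromycin. There were 4 groups of 3 poly(A) RNA libraries. Ctrl cells were untreated, TMG cells received 10 µM Thiamet-G, E2 cells received 1 µM β-estradiol, and TMG_E2 cells received both, each for 30 h. Cells without the fusion were not analysed here, so effects of E2 through GATA-1ER and other effects of E2 cannot be told apart. Whether replicates came from separate cultures is not stated by any label, and every p-value below therefore reflects the spread among these libraries alone, technical or not.

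The pathway turns the glycolytic intermediate fructose-6-phosphate into UDP-GlcNAc, the donor sugar for N-glycans, GPI anchors, glycosaminoglycans and O-GlcNAc. GFPT1 commits the sugar by adding an amino group from glutamine, GNPNAT1 acetylates it, PGM3 moves the phosphate and UAP1 joins it to UTP. NAGK salvages free GlcNAc, AMDHD2 removes the acetyl group, and GNPDA1 and GNPDA2 return glucosamine-6-phosphate to fructose-6-phosphate. OGT places a single GlcNAc on serines and threonines of nuclear and cytoplasmic proteins, and OGA, the enzyme that Thiamet-G inhibits, takes it off.

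The libraries held 17589400 to 23178700 expected counts, so that 3 counts equal 0.133 to 0.180 CPM (counts scaled to library depth) in a library. The labels call the cells embryonic stem cells, but of 5 stem cell markers none passed the expression filter and their summed level reached at most 0.281 CPM, with Pou5f1, Sox2 and Zfp42 at 0 in all 12 libraries. All 6 erythroid markers passed, and their summed level was 1180 to 1280 CPM without E2 and 6350 to 6860 CPM with it. Mast cell markers (5 genes, 3 kept) summed to 76.8 to 100 CPM without E2 and 0.280 to 0.910 CPM with it, with Tpsb2 and Mcpt8 at 0 throughout. Megakaryocyte markers (5 genes, 1 kept) summed to 75.1 to 90.7 CPM without E2 and 37.2 to 43.8 CPM with it, with Vwf at 0. Most of that sum was Nbeal2 (65.4 to 81.2 CPM without E2 and 22.7 to 29.4 CPM with it), whereas Gp9 went from 0.519 to 1.56 CPM up to 5.34 to 8.74 CPM and Itga2b overlapped (5.05 to 7.28 and 5.51 to 7.25 CPM). Granulocyte markers (5 genes, 1 kept) summed to 16.3 to 23.3 CPM and 1.57 to 3.35 CPM, almost all of it Coro1a, with Elane and S100a8 at 0. Lymphoid markers (4 genes, none kept) summed to at most 1.22 CPM, with Cd3e at 0. These marker levels moved with E2 alongside the member genes described below, and their part in the members' changes was not tested. In bulk RNA, fewer cells of a type and less RNA per cell cannot be told apart.

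Promoter sequence was available for 8 of the 10 members (RefSeq, GRCm38.p6), and the 4 below are shown because they stand for the main patterns of the data: Gfpt1 is the member that fell most with E2, Amdhd2 one that rose, Gnpda2 the tested member that was not called with E2, and Mgea5 the member called with Thiamet-G both with and without E2. Each runs 5′ to 3′ towards the start of its gene, taken from the 250 bases before the annotated start and cut where it enters the gene's annotated limits. Capitals mark a motif match.
Gfpt1, chr6:87042596-87042845, plus strand: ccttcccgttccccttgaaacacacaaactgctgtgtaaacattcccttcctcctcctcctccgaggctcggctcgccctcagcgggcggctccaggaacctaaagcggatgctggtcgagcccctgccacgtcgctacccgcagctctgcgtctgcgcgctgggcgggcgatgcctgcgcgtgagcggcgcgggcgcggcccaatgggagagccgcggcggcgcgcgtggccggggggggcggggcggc
Amdhd2, chr17:24163734-24163983, minus strand: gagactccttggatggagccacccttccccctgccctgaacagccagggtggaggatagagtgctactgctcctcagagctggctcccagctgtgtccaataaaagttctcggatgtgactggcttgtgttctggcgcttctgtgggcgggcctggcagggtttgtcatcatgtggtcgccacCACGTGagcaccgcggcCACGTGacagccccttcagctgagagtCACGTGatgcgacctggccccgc
Gnpda2, chr5:69592333-69592554, minus strand: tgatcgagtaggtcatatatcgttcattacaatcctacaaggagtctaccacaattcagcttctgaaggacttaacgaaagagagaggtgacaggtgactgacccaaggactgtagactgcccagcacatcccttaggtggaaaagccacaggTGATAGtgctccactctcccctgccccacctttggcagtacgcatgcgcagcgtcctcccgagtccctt
Mgea5, chr19:45783645-45783803, minus strand: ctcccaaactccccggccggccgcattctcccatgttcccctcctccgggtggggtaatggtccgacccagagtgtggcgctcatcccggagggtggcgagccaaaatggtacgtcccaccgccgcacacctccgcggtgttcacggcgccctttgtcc

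The windows of all 8 members were searched on both strands over the 250 bases before the start. The GATA motif, searched as AGATAA and as AGATAG and likewise as TGATAA and as TGATAG, occurred in 26.5% of 32851 RefSeq windows of that length and in 1 member, Gnpda2, as TGATAG from -97 to -92. The NRF1-type motif occurred in 3.74% of windows and in 1 member, Nagk. The ATF4-type TGATGNAAT (0.816% of windows) and the XBP1-type TGACGTGG (0.563%) occurred in none of the 8. The E-box CACGTG, looked for after the windows had been read, occurred in 6.02% of windows, and the Amdhd2 window held 3 copies, beginning at -67, -50 and -23. Positions are counted back from the end of the uncut windows, and the Gnpda2 sequence above lacks the last 28 bases of its window. A match describes the letters in the window and does not show a bound site. The Gfpt1 window is rich in G and C, at 72.0% against a median of 52.4% over all windows.

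Of the 10 members, 9 passed the filter of CPM over 10 in at least 2 libraries and were tested. Nagk stayed below it in every library. Gnpnat1 passed only through its 6 libraries without E2, and Amdhd2 through 6 with E2 and 1 without, so for these genes the filter itself favoured the direction found. A gene was called when its adjusted p from edgeR's quasi-likelihood test was below 0.05.

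With E2 the genes of UDP-GlcNAc synthesis were lower, while Gnpda1 and Amdhd2 and both genes of O-GlcNAc cycling were higher. In E2 vs Ctrl, 4 of the 9 members tested were called higher and 4 lower, where 82.7% of all 8273 genes were called (41.5% higher and 41.2% lower). A count of 8 of 9 is thus close to the background of this comparison. The median absolute log2 fold change was 0.736 over the members and 0.412 over all genes tested. In TMG_E2 vs TMG the same split of 4 higher and 4 lower was found, against a background of 82.7% (40.9% higher and 41.8% lower). In both comparisons the counts include Gnpnat1 (lower) and Amdhd2 (higher), for which the filter favoured the direction found.

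**Figure D1:**
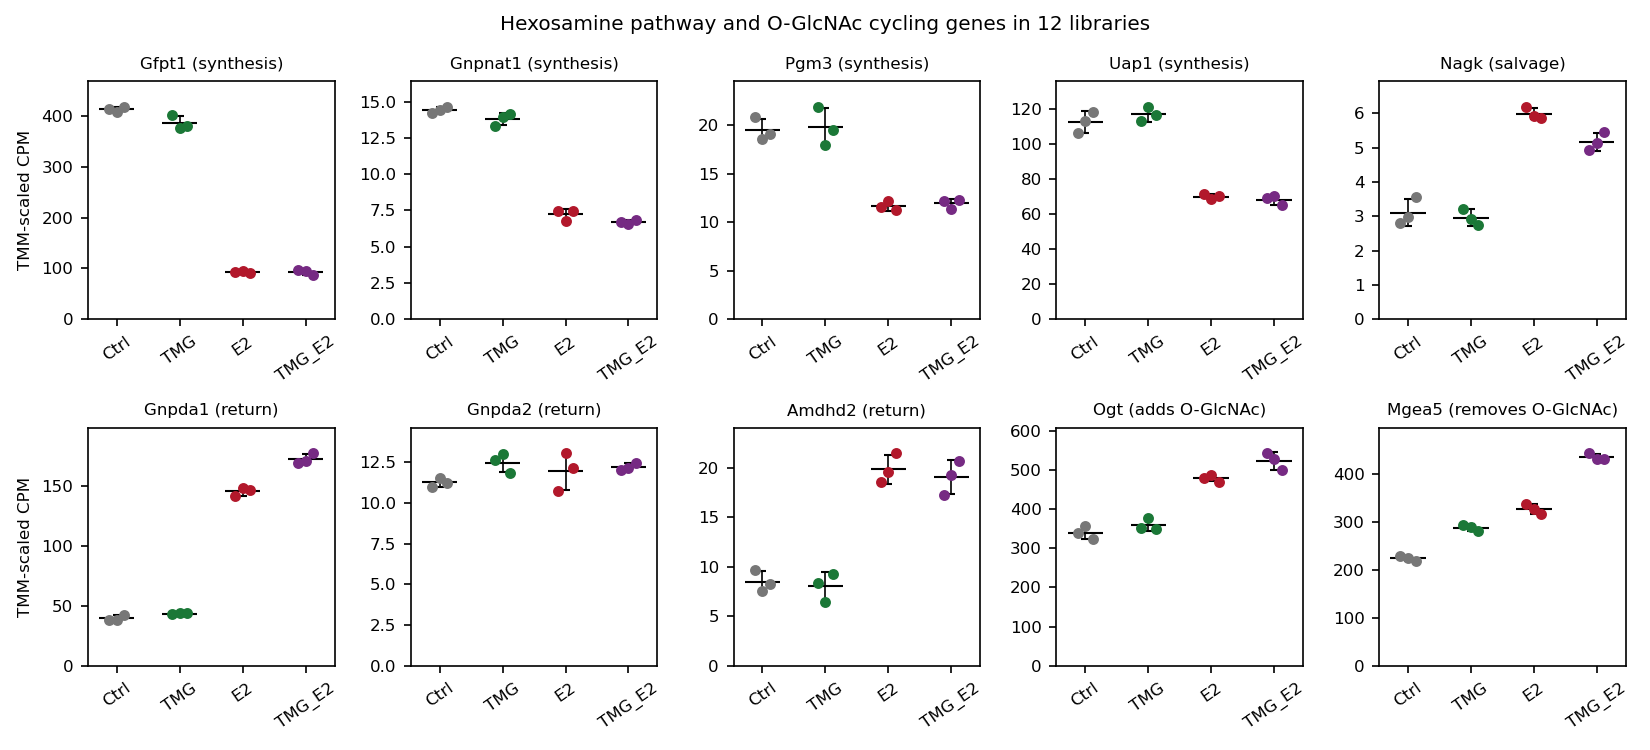
TMM-scaled CPM of the 10 members in the 12 libraries (points), with the group mean (line) and SD (bars, n = 3); each panel has its own axis from 0. Gfpt1, Gnpnat1, Pgm3 and Uap1 are lower in all 6 libraries with E2, and Mgea5 steps up with each treatment.

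Gfpt1 (chr6:87042846-87092207, GRCm38.p6), which encodes the rate-limiting enzyme of the pathway, was at 414, 407 and 418 CPM in the Ctrl libraries and at 93.0, 95.0 and 91.5 CPM in the E2 libraries. It fell 4.43-fold (log2 fold change -2.15 ± 0.04 SE, edgeR adjusted p = 1.47e-17). The groups were far apart, and the E2 libraries lay within 4 CPM of each other. With Thiamet-G in both groups, the levels were 401, 377 and 380 CPM without E2 and 97.2, 95.3 and 86.8 CPM with it, a fall of 2.05 ± 0.04 SE on the log2 scale (edgeR adjusted p = 3.07e-17). Its log2 fold change lay at percentile 1.72 of all genes tested in E2 vs Ctrl.

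Gnpnat1 (chr14:45376421-45388987), the acetyltransferase of the next step, was a low-abundance transcript at 14.2, 14.4 and 14.6 CPM in Ctrl and 7.43, 6.78 and 7.48 CPM in E2. The fall was 2.0-fold (log2 fold change -1.0 ± 0.07 SE, edgeR adjusted p = 1.12e-09), with no overlap. With Thiamet-G it went from 13.3, 13.9 and 14.1 CPM to 6.72, 6.58 and 6.83 CPM (log2 fold change -1.04 ± 0.08 SE, edgeR adjusted p = 9.34e-10). Its exons overlap Styx on the opposite strand, and whether the authors counted by strand is not stated. Styx differed by -0.12 ± 0.05 SE in E2 vs Ctrl (edgeR adjusted p = 0.0503).

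Pgm3 (chr9:86552476-86571878), the phosphomutase, was at 20.8, 18.5 and 19.1 CPM in Ctrl and at 11.6, 12.2 and 11.2 CPM in E2. It fell by 0.74 ± 0.08 SE on the log2 scale (edgeR adjusted p = 1.96e-07), and the lowest Ctrl library was well above the highest E2 library. With Thiamet-G, 21.9, 18 and 19.5 CPM became 12.1, 11.4 and 12.3 CPM (log2 fold change -0.73 ± 0.08 SE, edgeR adjusted p = 2.39e-07). The gene shares exonic bases with Dopey1 (Dop1a) on the opposite strand, which rose by 0.24 ± 0.05 SE in E2 vs Ctrl, the other way from Pgm3.

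Uap1 (chr1:170141223-170174964), the pyrophosphorylase that completes UDP-GlcNAc, was at 106, 113 and 119 CPM in Ctrl and at 71.3, 68.8 and 70.2 CPM in E2. It fell by 0.69 ± 0.05 SE on the log2 scale (edgeR adjusted p = 2.77e-10). With Thiamet-G, 113, 121 and 117 CPM became 69.4, 70.4 and 65.1 CPM, a fall of 0.78 ± 0.05 SE (edgeR adjusted p = 5.26e-11). The groups with and without E2 did not overlap in either comparison. All 4 synthesis genes were therefore lower with E2 whether or not Thiamet-G was present. The falls in E2 vs Ctrl ran from 4.43-fold (Gfpt1) to 1.61-fold (Uap1). Of the 4, Gnpnat1 passed the filter only through libraries without E2, which favoured a fall.

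Nagk (chr6:83794983-83802556), the salvage kinase, was at 2.79, 2.97 and 3.56 CPM in Ctrl, 3.22, 2.91 and 2.74 CPM in TMG, 6.19, 5.94 and 5.86 CPM in E2, and 4.93, 5.13 and 5.45 CPM in TMG_E2. All 6 libraries with E2 were above all 6 without it. In the same fit without a filter (16108 genes), Nagk was 0.94 ± 0.14 SE higher on the log2 scale in E2 than in Ctrl (edgeR adjusted p = 9.71e-09) and 0.79 ± 0.15 SE higher in TMG_E2 than in TMG (edgeR adjusted p = 2.32e-06). The 3 TMG_E2 libraries lay below the 3 E2 libraries, but the difference of -0.21 ± 0.13 SE was not called there (edgeR adjusted p = 0.429).

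Gnpda1 on chromosome 18, a deaminase that runs the first step backwards, was at 38.3, 38.0 and 42.3 CPM in Ctrl and at 141, 148 and 147 CPM in E2. It rose 3.67-fold (log2 fold change 1.88 ± 0.04 SE, edgeR adjusted p = 1.55e-16). With Thiamet-G, 42.7, 44.0 and 43.6 CPM became 169, 170 and 177 CPM (log2 fold change 1.99 ± 0.04 SE, edgeR adjusted p = 7.55e-17). Its log2 fold change lay at percentile 97.2 of all genes in E2 vs Ctrl, at the other end from Gfpt1.

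Its paralog Gnpda2 (chr5:69574998-69592332), which catalyses the same reaction, was at 11, 11.6 and 11.2 CPM in Ctrl and at 10.7, 13 and 12.1 CPM in E2. The groups overlapped, and the difference of 0.09 ± 0.08 SE on the log2 scale was not called (edgeR adjusted p = 0.295). The difference in TMG_E2 vs TMG was -0.03 ± 0.08 SE (edgeR adjusted p = 0.704), from 12.6, 13 and 11.8 CPM to 12, 12.1 and 12.5 CPM. The gene overlaps Guf1 on the opposite strand, which fell by 0.27 ± 0.07 SE in E2 vs Ctrl.

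Amdhd2 (chr17:24155833-24163733), the deacetylase, was at 9.70, 7.55 and 8.23 CPM in Ctrl and at 18.5, 19.6 and 21.4 CPM in E2, a 2.34-fold rise (log2 fold change 1.23 ± 0.12 SE, edgeR adjusted p = 2.68e-08). The lowest E2 library was well above the highest Ctrl library. With Thiamet-G, 8.34, 6.38 and 9.30 CPM became 17.3, 19.2 and 20.7 CPM (log2 fold change 1.25 ± 0.12 SE, edgeR adjusted p = 3.09e-08).

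Ogt (chrX:101640011-101684351), the gene of the transferase, was at 339, 358 and 324 CPM in Ctrl and at 480, 487 and 470 CPM in E2. The rise was 1.41-fold (log2 fold change 0.49 ± 0.04 SE, edgeR adjusted p = 8.27e-09), with no overlap. In TMG_E2 vs TMG it rose by 0.54 ± 0.04 SE on the log2 scale (edgeR adjusted p = 2.36e-09), from 353, 376 and 350 CPM to 542, 528 and 499 CPM.

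Mgea5 (chr19:45750255-45783644), the gene of the O-GlcNAc hydrolase, was at 230, 224 and 219 CPM in Ctrl and at 338, 328 and 317 CPM in E2, a 1.46-fold rise (log2 fold change 0.55 ± 0.04 SE, edgeR adjusted p = 1.37e-10). In TMG_E2 vs TMG it rose by 0.59 ± 0.04 SE (edgeR adjusted p = 3.77e-11), from 294, 290 and 280 CPM to 443, 431 and 431 CPM. An annotated transcript, Gm15491, overlaps the gene on the opposite strand and was not analysed here. Both cycling genes thus rose with E2 by less than 1.6-fold in each comparison, and their log2 fold changes in E2 vs Ctrl stood at percentiles 78.9 (Ogt) and 80.9 (Mgea5) of all genes.

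With Thiamet-G, Mgea5, the gene of the inhibited enzyme, was higher both with and without E2, Gnpda1 was called higher in cells given E2, and no other member was called. In TMG vs Ctrl 1 of the 9 members was called, Mgea5, which was higher, where 5.15% of all genes were called (3.01% higher and 2.14% lower). In TMG_E2 vs E2 2 were called, Mgea5 and Gnpda1, both higher, where 12.8% of all genes were called (5.61% higher and 7.14% lower). The 426 calls over all genes behind the first share fell to between 196 and 257 when any 1 of the 6 Ctrl and TMG libraries was left out. The 1055 calls behind the second fell to 656 without E2 replicate 3 and to 682 without E2 replicate 2. Mgea5 was called in each of these fits. These comparisons use the same Ctrl and E2 libraries as the E2 comparison above. The median absolute log2 fold change of the members was 0.0874 without E2 and 0.0626 with it, beside 0.0584 and 0.0722 over all genes tested.

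**Figure D2:**
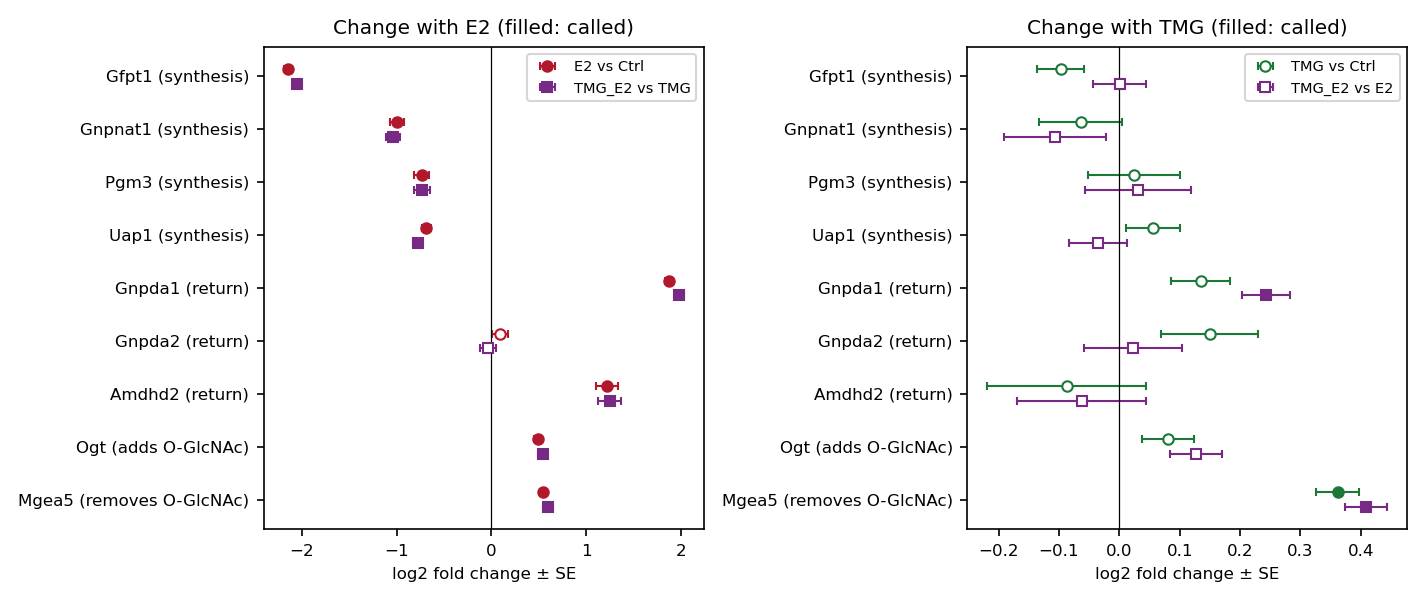
log2 fold changes ± SE of the 9 tested members with E2 (left) and with Thiamet-G (right, narrower axis), each in the absence and presence of the other agent; filled symbols have an edgeR adjusted p below 0.05. The changes of Mgea5 with Thiamet-G, 0.36 and 0.41, stand to the right of the other members.

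Mgea5 rose from 230, 224 and 219 CPM in Ctrl to 294, 290 and 280 CPM in TMG, which is 1.29-fold (log2 fold change 0.36 ± 0.04 SE, edgeR adjusted p = 1.73e-05). In cells given E2 it rose from 338, 328 and 317 CPM to 443, 431 and 431 CPM, which is 1.33-fold (log2 fold change 0.41 ± 0.03 SE, edgeR adjusted p = 8.05e-06). The groups did not overlap in either setting. These log2 fold changes lay at percentiles 98.9 and 99.4 of all genes tested. The difference between them, the interaction of the treatments, was 0.05 ± 0.05 SE (edgeR adjusted p = 0.822).

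Ogt was at 339, 358 and 324 CPM in Ctrl and at 353, 376 and 350 CPM in TMG, and the overlapping groups differed by 0.08 ± 0.04 SE on the log2 scale (edgeR adjusted p = 0.338). With E2, the TMG_E2 libraries at 542, 528 and 499 CPM were all above the E2 libraries at 480, 487 and 470 CPM. That difference of 0.13 ± 0.04 SE narrowly missed the threshold (edgeR adjusted p = 0.0604). With a replicate block, a pairing that no label states, it was called (0.13 ± 0.03 SE, edgeR adjusted p = 0.0146), as it was without TMG_E2 replicate 3 (0.16, edgeR adjusted p = 0.0201). Leaving out any other E2 or TMG_E2 library left it uncalled (edgeR adjusted p = 0.0896 to 0.206). It was also uncalled with library size scaling (edgeR adjusted p = 0.127) and in a fit of the 2 groups alone (edgeR adjusted p = 0.136). In all, 5 of 14 alternatives called it.

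Gnpda1 was at 141, 148 and 147 CPM in E2 and at 169, 170 and 177 CPM in TMG_E2, a 1.18-fold rise (log2 fold change 0.24 ± 0.04 SE, edgeR adjusted p = 0.00107). Without E2 the TMG libraries (42.7 to 44.0 CPM) also lay above the Ctrl libraries (38.0 to 42.3 CPM), by a narrow margin, and the difference of 0.13 ± 0.05 SE on the log2 scale was not called (edgeR adjusted p = 0.126). The interaction of 0.11 ± 0.06 SE was not called either (edgeR adjusted p = 0.564), so a different response with E2 was not detected.

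None of the 4 synthesis genes was called with Thiamet-G. Their log2 differences ran from -0.10 (Gfpt1) to 0.06 (Uap1) in TMG vs Ctrl and from -0.11 (Gnpnat1) to 0.03 (Pgm3) in TMG_E2 vs E2. The 3 TMG libraries of Gfpt1 (377 to 401 CPM) lay below the 3 Ctrl libraries (407 to 418 CPM), with edgeR adjusted p = 0.177. With E2, Gfpt1 averaged 93.2 ± 1.8 CPM (SD, n = 3) without and 93.1 ± 5.5 CPM (SD, n = 3) with Thiamet-G. Gnpda2 differed by 0.15 ± 0.08 SE in TMG vs Ctrl, the TMG libraries being the higher 3, and Amdhd2 by -0.09 ± 0.13 SE, and neither was called (edgeR adjusted p = 0.339 and 0.777). In the interaction, 0 of the 9 members were called by edgeR or DESeq2 and 0 had an unadjusted p below 0.05, where 0.931% of all genes were called (0.266% higher and 0.665% lower). The member interactions ran from -0.13 (Gnpda2) to 0.11 (Gnpda1).

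The balance of the cycling genes shifted with Thiamet-G in the same direction with and without E2. The ratio of Mgea5 to Ogt CPM was 0.678, 0.628 and 0.675 in Ctrl and 0.833, 0.772 and 0.802 in TMG. It was 0.704, 0.673 and 0.675 in E2 and 0.817, 0.817 and 0.863 in TMG_E2. Every library with Thiamet-G was above every library without it. The log2 ratio was 0.28 higher with Thiamet-G (exact permutation test within E2 strata, 2-sided, p = 0.005, the smallest that its 400 permutations can give). From the deposited TPM, transcript abundances scaled to the library total that also correct for the transcript length estimated in each library, the difference was 0.17 (exact permutation p = 0.005), so part of its size depends on that correction.

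**Figure D3:**
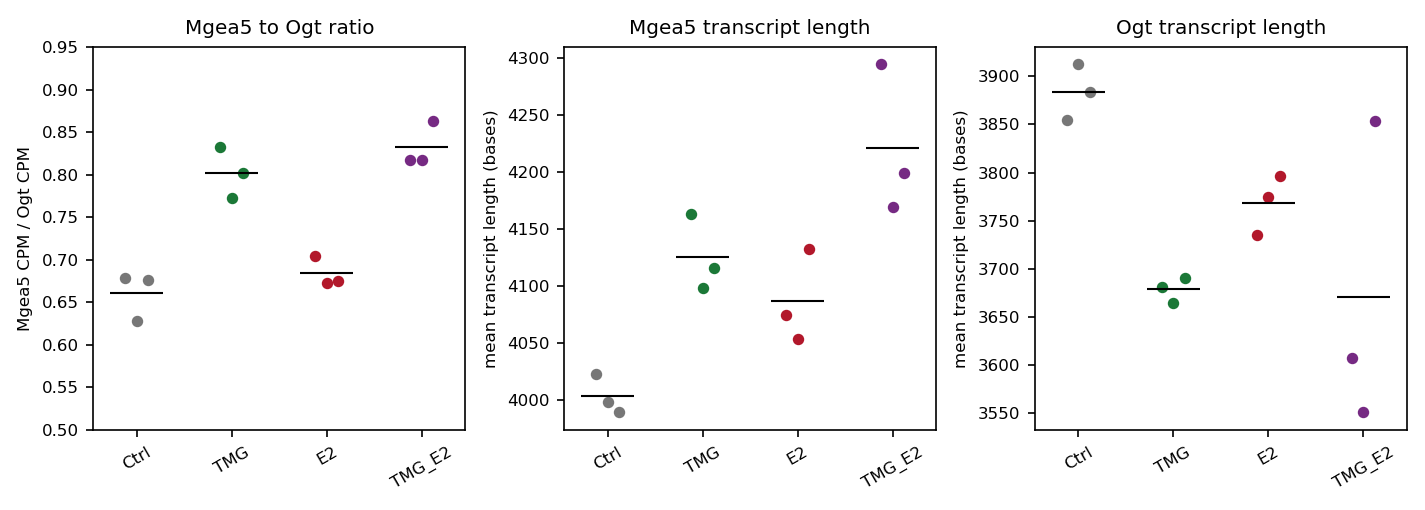
Left, ratio of Mgea5 to Ogt CPM in each library (axis from 0.5); middle and right, mean transcript length of Mgea5 and of Ogt in bases as deposited (axes not from 0); points are libraries and lines group means. The ratio is higher in all 6 libraries with Thiamet-G, and the TMG_E2 libraries are spread widely for the length of Ogt.

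RSEM also gives for each gene the mean length of its transcripts weighted by their estimated abundance, so this length moves when the mix of isoforms moves. For Mgea5 (4 annotated transcripts) it was 4023, 3999 and 3990 bases in Ctrl and 4163, 4098 and 4116 bases in TMG. With E2 it was 4075, 4054 and 4133 bases, and with both agents 4295, 4170 and 4200 bases. It was longer with Thiamet-G in both settings with no overlap, by 0.04 and 0.05 on the log2 scale, though neither passed the threshold (limma adjusted p = 0.901 and 0.679).

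For Ogt (6 annotated transcripts) the mean length was 3855, 3912 and 3884 bases in Ctrl and 3681, 3665 and 3691 bases in TMG. With E2 it was 3735, 3774 and 3797 bases, and with both agents 3607, 3551 and 3853 bases. Ogt transcripts were shorter in the TMG than in the Ctrl libraries with no overlap, but in cells given E2 the groups overlapped through TMG_E2 replicate 3, and neither difference was called (limma adjusted p = 1 for both). Without that library the difference with E2 went from -0.04 to -0.07 on the log2 scale (limma adjusted p = 0.0867). Over 5727 genes with at least 2 transcripts, 0% of genes were called for length in TMG vs Ctrl and 0.0175% in TMG_E2 vs E2, against 5.13% in E2 vs Ctrl, 4.92% in TMG_E2 vs TMG and 0% in the interaction, and 0 of the 7 members with several transcripts and a test were called in any comparison. At an unadjusted limma p below 0.05, 3 members differed in TMG vs Ctrl (Mgea5, Ogt and Amdhd2) and 1 in TMG_E2 vs E2 (Mgea5). Under the same cut, 2 differed in each of E2 vs Ctrl, TMG_E2 vs TMG and the interaction. The share of all genes under this cut is not given here, so these counts have no background beside them. Which isoforms lie behind the length differences cannot be read from the gene-level values.

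Per transcript length, the order of the members differed between the groups. In Ctrl cells the highest deposited TPM was that of Ogt (144), followed by Gfpt1 (108), Mgea5 (91.8), Uap1 (62.3) and Gnpda1 (29.2), with no overlap between neighbours in this order. Pgm3 (11.2), Gnpda2 (10.8), Amdhd2 (10.6) and Gnpnat1 (9.58) came next, Amdhd2 overlapping each of the other 3 over the libraries and Pgm3 overlapping Gnpda2. Nagk was lowest at 4.24. In TMG cells Mgea5 (111 TPM, 107 to 113) stood above Gfpt1 (97.6 TPM, 94.3 to 103) with no overlap, the reverse of their order in Ctrl.

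In E2 cells Ogt (183 TPM) and Mgea5 (115 TPM) were followed by Gnpda1 (93.8 TPM), Uap1 (34.3 TPM), Amdhd2 (21.6 TPM) and Gfpt1 (21.1 TPM), the last 2 overlapping. Gnpda2 (10.1 TPM), Nagk (7.13 TPM), Pgm3 (6.26 TPM) and Gnpnat1 (4.20 TPM) completed the order. In TMG_E2 cells Gfpt1 (20.8 TPM) and Amdhd2 (20.2 TPM) again overlapped, as did Pgm3 (6.12 TPM) and Nagk (5.99 TPM). Ogt stayed the highest member in each of the 12 libraries.

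**Figure D4:**
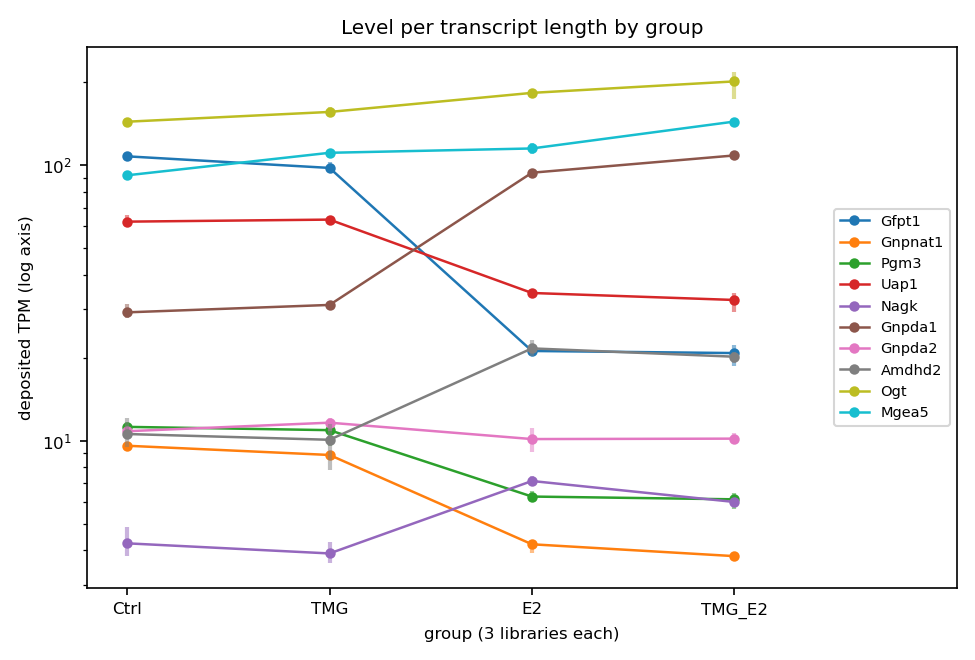
Mean deposited TPM of the 10 members in each group on a log axis, with the range over 3 libraries as bars; lines join the 4 groups of a gene and show no course in time. Gfpt1 and Gnpda1 cross between the groups without and with E2.

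The opposed pair at the entry of the pathway gave the clearest crossing. The ratio of Gnpda1 to Gfpt1 TPM was 0.263 to 0.285 in Ctrl, 0.302 to 0.332 in TMG, 4.30 to 4.57 in E2 and 4.94 to 5.73 in TMG_E2. Transcripts of the forward enzyme thus exceeded those of the reverse one in the 6 libraries without E2, and the order was turned in the 6 with E2. These are transcript levels, and neither enzyme activity nor UDP-GlcNAc was measured here.

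Across the 12 libraries, which share the large E2 effect, log2 CPM of Gfpt1 ran with Gnpnat1 (Pearson r = 0.992), Uap1 (r = 0.988) and Pgm3 (r = 0.979) and against Gnpda1 (r = -0.995) and Ogt (r = -0.966). The genes most like Gfpt1 were Pip4k2b, Zfp280c and Ugcg, each with r above 0.99, and 1956 genes had r over 0.95 with it. For Ogt they were Fam208a, Vps54 and Zfp39 (r = 0.99 each), with 1519 genes over 0.95. Mgea5, which moved with both agents, had fewer companions. Its nearest genes were Parp14, 1300017J02Rik and BC147260 (r = 0.98 each), and 37 genes had r over 0.95.

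Neighbouring genes of the pathway were taken from 4 lists of 44 genes, all found in the files, of which 32 passed the filter. In E2 vs Ctrl 14 were called higher and 13 lower (27 of 32, beside 82.7% of all genes), and in TMG_E2 vs TMG again 14 and 13. Among 12 paralogs and genes of precursor supply, 10 were tested, and 3 rose and 6 fell with E2. Uap1l1, a paralog of Uap1, rose from 18.3 to 18.8 CPM in Ctrl to 47.4 to 51.6 CPM in E2 (log2 fold change 1.41 ± 0.07 SE), the other way from Uap1. Hk1, a hexokinase, rose by 1.17 ± 0.04 SE, while Glul, which makes the glutamine that GFPT1 uses, fell by 0.30 ± 0.04 SE. Gfpt2, the paralog of Gfpt1, had 0 counts in each of the 6 libraries without E2 and 1 or 2 counts in each of those with it, below the floor of 3 counts, so it was at most a trace transcript beside Gfpt1.

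A list of 13 genes covered N-glycans, GPI anchors and lysosomal targeting, and not all of them encode enzymes that use UDP-GlcNAc. Of these, 11 were tested, and 4 rose and 6 fell in E2 vs Ctrl (90.9% called, beside 82.7% of all genes). Mgat4b, a branching N-glycan transferase, fell by 1.75 ± 0.07 SE on the log2 scale, from 38.4 to 43.8 CPM down to 11.3 to 12.7 CPM. Piga, of the first step of GPI anchor synthesis, rose by 0.96 ± 0.05 SE. None of the 11 was called in either comparison of Thiamet-G.

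Of 11 genes of the sialic acid branch and of nucleotide sugar transport, 9 were tested. In E2 vs Ctrl 5 rose and 1 fell (66.7% called, beside 82.7% of all genes). Cmas, which activates sialic acid, had the largest change of the neighbouring genes, from 27.1 to 30.6 CPM in Ctrl to 160 to 182 CPM in E2 (log2 fold change 2.55 ± 0.06 SE, edgeR adjusted p = 1.43e-16). Renbp, which interconverts GlcNAc and N-acetylmannosamine, rose by 2.17 ± 0.07 SE. Slc35a1, the transporter of CMP-sialic acid into the Golgi, fell by 1.44 ± 0.06 SE, from 30.5 to 32.9 CPM down to 11.4 to 12 CPM. The activating enzyme and the transporter of the same sugar thus moved in opposite directions.

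Of 8 genes listed for lysosomal release of N-acetylhexosamines, 2 passed the filter. Both were called higher in E2 vs Ctrl, where 41.5% of all genes were.

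With Thiamet-G, 3 of the 32 neighbouring genes were called in TMG vs Ctrl, all higher, beside 5.15% of all genes. Glul was among them (0.19 ± 0.04 SE, edgeR adjusted p = 0.0178). This count fell to 0 without Ctrl replicate 1, Ctrl replicate 2 or TMG replicate 3, and to 1 without Ctrl replicate 3, TMG replicate 1 or TMG replicate 2. Calls over all genes fell from 426 to between 196 and 257 in these fits. In TMG_E2 vs E2, 5 were called higher and 1 lower, beside 12.8% of all genes. Renbp rose by 0.27 ± 0.06 SE (edgeR adjusted p = 0.00597), Slc35a1 by 0.27 ± 0.07 SE (edgeR adjusted p = 0.0135) and Glul by 0.16 ± 0.04 SE (edgeR adjusted p = 0.0253). That count of 6 fell to 2 without E2 replicate 1 or E2 replicate 3 and to 3 without TMG_E2 replicate 2. Calls over all genes then numbered 724, 656 and 967, against 1055. Cmas and Slc35b4 were named after their values were seen. They were called too, Cmas higher (0.16 ± 0.05 SE, edgeR adjusted p = 0.0491) and Slc35b4 lower (-0.18 ± 0.05 SE, edgeR adjusted p = 0.0341). In the interaction, 0 of the 32 neighbouring genes were called by edgeR or DESeq2, and 1 had an unadjusted p below 0.05.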

How the data were processed

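Poly(A) RNA of 12 libraries in 4 groups was sequenced as read pairs from a stranded kit, per the labels' protocols. Per the series design text and the submitters' processing notes, the authors used FastQC 0.11.2, RSEM 1.2.22 and GRCm38 (mm10), and edgeR 3.14.0 in R 3.2.2. Whether counting used strand is not given in the sources here. Per the file headers, the deposited files hold RSEM expected counts (reads shared between genes are divided), TPM, FPKM (not used) and mean transcript and effective lengths. Expected counts were rounded and tested with edgeR 4.0.16 in R 4.3.3 (quasi-likelihood, TMM, Benjamini-Hochberg, threshold 0.05). By the filter of the series design text, 8273 genes with CPM over 10 in at least 2 libraries were kept. All 12 libraries entered 1 fit with 5 comparisons, and SE came from the F statistic. CPM in the text is TMM-scaled. TPM served to compare genes. The fit was tested on simulated data.

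Members and lists were chosen with earlier results of these data known. Besides the members, the text names up to 2 called genes with the largest change per list and comparison, the opposite-strand neighbours, and the 3 genes most correlated with Mgea5, Ogt and Gfpt1. Gfpt2 was named after its values were seen. Values of some list genes are not reported here, though counts include them. Mean transcript length was tested with limma 3.58.1 on the log2 scale and was added after seeing the data. Alternatives were DESeq2 1.42.0, other scalings and filters, an effective length offset, only the groups compared, a replicate block and leaving out each library. Deviations of same-numbered libraries from their group means correlated positively in E2 vs Ctrl (0.108, 0.278, 0.112) and TMG vs Ctrl (0.0876, 0.0295, 0.188). They did so too in TMG_E2 vs E2 (0.285, 0.182, 0.201) and TMG_E2 vs TMG (0.525, 0.149, 0.412). Differently numbered libraries were not compared, so these values alone do not establish a pairing. The pairing used in the block comes from the data, as no label states it. Each pair of replicates differed by more than counting noise (chi-square over its degrees of freedom, 2.41 to 13.1). The TMG_E2 pairs gave 8.66, 13.1 and 8.66, and the pairs of the other groups 2.41 to 4.17.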

Additional observations from a re-analysis of the deposited data

How the results depend on the processing

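Of 673 values of member genes under the alternatives, 668 kept their direction and side of the threshold or were uncalled throughout (27 uncalled values changed sign), and 5 passed the threshold that the reported value missed. All 5 were Ogt in TMG_E2 vs E2: with the replicate block (adjusted p = 0.0146), without the filter (0.0481), with RLE size factors (0.0431), with DESeq2 (0.0250) and without TMG_E2 replicate 3 (0.0201). Over the alternatives this adjusted p ran from 0.0146 to 0.206. The block changed no other call of a member. With scaling by library size alone, the median log2 fold change of all genes was -0.0991 in E2 vs Ctrl (-0.000765 with TMM). In TMG_E2 vs TMG it was -0.108 (-0.0105 with TMM). The calls over all genes then split 2871 higher and 3952 lower (3432 and 3406 with TMM) in E2 vs Ctrl. They split 179 and 232 (249 and 177) in TMG vs Ctrl, and 348 and 764 (464 and 591) in TMG_E2 vs E2. The direction of every called member was the same under each scaling. Calls over all genes in TMG vs Ctrl numbered 749 in a fit of those 2 groups alone and 675 with the replicate block (426 reported); a fit of the 2 groups alone gave 472 in TMG_E2 vs E2 (1055 reported). Interaction calls over all genes ran from 18 to 178 across alternatives, against 77. Without TMG_E2 replicate 3 they numbered 161, and the calls in TMG_E2 vs E2 numbered 1160 (1055 reported).

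Without the filter, where low genes enter, 5 neighbouring genes were called in TMG vs Ctrl and 1 in the interaction. Over all 16108 genes of that fit, 567 and 178 were called. When only the groups compared were fitted, 2 neighbouring genes were called in TMG_E2 vs E2, beside 472 calls over all genes. The cause was not tested. Leaving out 1 library gave 0 to 1 neighbouring genes in TMG vs Ctrl, beside 196 to 257 calls over all genes. In TMG_E2 vs E2 it gave 2 to 7, beside 656 to 1160. The Mgea5 to Ogt log2 ratio difference was 0.2806 in libraries without E2 and 0.2826 in those with it (exact permutation p = 0.1 for each, the smallest that 3 against 3 allows) and 0.2634 to 0.2952 leaving out 1 library. The filter of CPM over 10 leaves Nagk untested, and Amdhd2 had the widest SE of the tested members in each comparison.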
